A study of Mus musculus with 59 samples.

Results

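The 10 genes examined here govern the entry of fatty acids into the hepatocyte and their activation to acyl-CoA: *Cd36*, *Vldlr*, *Fabp1*, *Slc27a1*, *Slc27a2*, *Slc27a4*, *Slc27a5*, *Acsl1*, *Acsl3* and *Acsl5*. Binding of the repressor BCL6 and of the nuclear receptors PPARα and PPARδ along these genes was read from 7 ChIP-seq peak lists of mouse liver on build mm10. A peak was assigned to a gene if its center lay within the annotated gene, or if the nearest transcription start site (TSS) of any protein-coding RefSeq gene belonged to it and lay within 100 kb. Peak centers of the 7 lists that lay within 200 bp of one another were joined into a site. Of 40474 sites in all, 69 belonged to the 10 genes, and 9 of the 10 had at least 1 site, against 52.6% of 21774 protein-coding genes. *Slc27a4* had none.

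BCL6, PPARα and PPARδ were each mapped in livers of wild-type male C57BL/6 mice, either fed *ad libitum* or fasted overnight. BCL6 was also mapped in fed male *Bcl6* fl/fl mice on the same strain, which carry loxP sites in *Bcl6*, are labelled wild type and served as controls of the liver knockout. Each list combines 3 livers and gives positions only, so a site was either called or not called in a list, no value has a spread between replicates, and the read depth is unknown. The ages of the mice were not given in the sources used here. Whole livers were used, so a change in the make-up of cells and a change within hepatocytes cannot be told apart. Marker genes of hepatocytes all had sites (*Alb* 11, *Apoa1* 17, *Ttr* 9 and *Tat* 9), whereas *Clec4f* of Kupffer cells, *Cd3e* of T cells and *Lrat* of stellate cells had none, and the endothelial gene *Pecam1* had 4. Over all protein-coding genes, 52.6% had a site. The marker counts only describe where peaks were called and do not show which cells the peaks came from.

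Long-chain fatty acids released from adipose tissue reach the liver during fasting, cross the plasma membrane with the help of CD36 and the fatty acid transport proteins of the Slc27a family, and are carried in the cytosol by FABP1. Acyl-CoA synthetases, among them the Acsl enzymes and several Slc27a proteins, then couple them to coenzyme A, which commits them to oxidation or esterification. PPARα and PPARδ bind DNA with RXR at direct repeats of AGGTCA with a spacer of 1 base (DR1), and many genes of this pathway are known PPARα targets. BCL6 is a zinc finger repressor that recognizes STAT-like sequences.

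For each gene with a site, the site called in the most lists is given, so that the elements named later can be read in place. Ties went to sites with both BCL6 and PPARα, and then to the site closest to a start of the gene. Sequences are on the plus strand of GRCm38, the assembly of mm10. Up to 100 bases on either side of the site center are given, and the *Fabp1* and *Acsl5* windows stop at the base before the transcript begins. Capitals mark matches on either strand to DR1 (AGGTCANAGGTCA with up to 2 mismatches) or to the BCL6 element (TTCCTAGAA with up to 1 mismatch). The capitals are BCL6 matches in *Cd36* and *Slc27a1* and DR1 matches in *Fabp1*, *Slc27a2*, *Slc27a5* and *Acsl3*, and the other windows held neither. At *Acsl1* a tied site at -83833 bp, not printed, held a DR1 match.
*Cd36*, chr5:17863201-17863401: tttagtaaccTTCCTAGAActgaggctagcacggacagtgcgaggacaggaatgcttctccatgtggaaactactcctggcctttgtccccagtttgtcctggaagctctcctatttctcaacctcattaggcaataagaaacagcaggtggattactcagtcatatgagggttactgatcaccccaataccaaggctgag
*Vldlr*, chr19:27176681-27176881: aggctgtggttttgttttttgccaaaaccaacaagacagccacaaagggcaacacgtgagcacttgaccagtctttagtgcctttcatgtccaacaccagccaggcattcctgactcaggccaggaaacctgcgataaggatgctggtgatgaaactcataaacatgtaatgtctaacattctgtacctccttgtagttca
*Fabp1*, chr6:71199695-71199878: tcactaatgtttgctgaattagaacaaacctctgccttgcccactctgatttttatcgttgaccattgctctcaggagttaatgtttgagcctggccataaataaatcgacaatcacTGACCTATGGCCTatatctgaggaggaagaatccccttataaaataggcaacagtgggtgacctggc
*Slc27a1*, chr8:71568392-71568592: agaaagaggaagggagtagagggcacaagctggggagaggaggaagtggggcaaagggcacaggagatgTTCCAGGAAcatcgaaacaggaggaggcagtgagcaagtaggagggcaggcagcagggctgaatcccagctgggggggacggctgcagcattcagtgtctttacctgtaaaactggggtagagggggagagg
*Slc27a2*, chr2:126555625-126555825: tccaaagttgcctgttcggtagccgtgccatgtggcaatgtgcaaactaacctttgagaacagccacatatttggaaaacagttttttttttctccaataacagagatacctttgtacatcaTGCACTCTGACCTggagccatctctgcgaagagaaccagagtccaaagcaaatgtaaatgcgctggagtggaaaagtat
*Slc27a5*, chr7:12997320-12997520: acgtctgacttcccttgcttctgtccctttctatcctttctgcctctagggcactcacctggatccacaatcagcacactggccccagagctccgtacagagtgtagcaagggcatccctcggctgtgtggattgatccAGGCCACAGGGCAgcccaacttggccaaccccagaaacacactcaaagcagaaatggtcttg
*Acsl1*, chr8:46485043-46485243: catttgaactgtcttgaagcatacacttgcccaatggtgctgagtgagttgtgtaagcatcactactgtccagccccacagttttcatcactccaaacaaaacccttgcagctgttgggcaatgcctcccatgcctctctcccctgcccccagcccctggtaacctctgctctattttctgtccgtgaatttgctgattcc
*Acsl3*, chr1:78656745-78656945: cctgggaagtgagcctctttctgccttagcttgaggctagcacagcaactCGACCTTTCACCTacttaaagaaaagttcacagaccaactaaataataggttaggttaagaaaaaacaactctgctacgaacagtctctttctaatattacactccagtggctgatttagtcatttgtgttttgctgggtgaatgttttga
*Acsl5*, chr19:55251740-55251860: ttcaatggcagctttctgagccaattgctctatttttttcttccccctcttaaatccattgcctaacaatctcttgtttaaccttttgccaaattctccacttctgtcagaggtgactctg

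The DNA region used for ChIP-qPCR at *Cd36* was placed by exact match of its designed primers, which are in capitals, and is shown because it overlaps a site bound by all 3 factors in intron 1. It is 116 bp long, and the center of that site lies just outside it.
*Cd36* amplicon, chr5:17876880-17876995: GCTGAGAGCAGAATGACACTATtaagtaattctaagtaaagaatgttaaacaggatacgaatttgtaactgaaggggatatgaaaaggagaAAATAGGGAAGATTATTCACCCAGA

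BCL6 was called at 42 of the 69 sites in C57BL/6 livers, PPARα at 59 and PPARδ at 27. Over all 40474 sites, BCL6 was called at 17577, PPARα at 33370 and PPARδ at 8194. PPARα sites were found at 9 of the 10 genes, against 48.2% of all protein-coding genes. These were all of the genes with any site, and over all genes 10494 of the 11452 with any site had PPARα. BCL6 sites were found at 7 genes (30.0% of all genes) and PPARδ sites at 7 (20.5%). At 34 sites of 7 genes BCL6 and PPARα were both called (25.1% of all genes had such a site), and at 19 sites of 5 genes, *Cd36*, *Fabp1*, *Slc27a2*, *Acsl1* and *Acsl5*, all 3 factors were (12.5% of all genes). Of the 40474 sites in all, 13639 held both BCL6 and PPARα, and 4651 held all 3 factors. *Slc27a1* and *Slc27a5* had PPARα sites with no C57BL/6 BCL6 call. These percentages cover all protein-coding genes, whether or not they are active in liver, and do not compare the 10 genes with other genes active in liver.

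**Figure D1:**
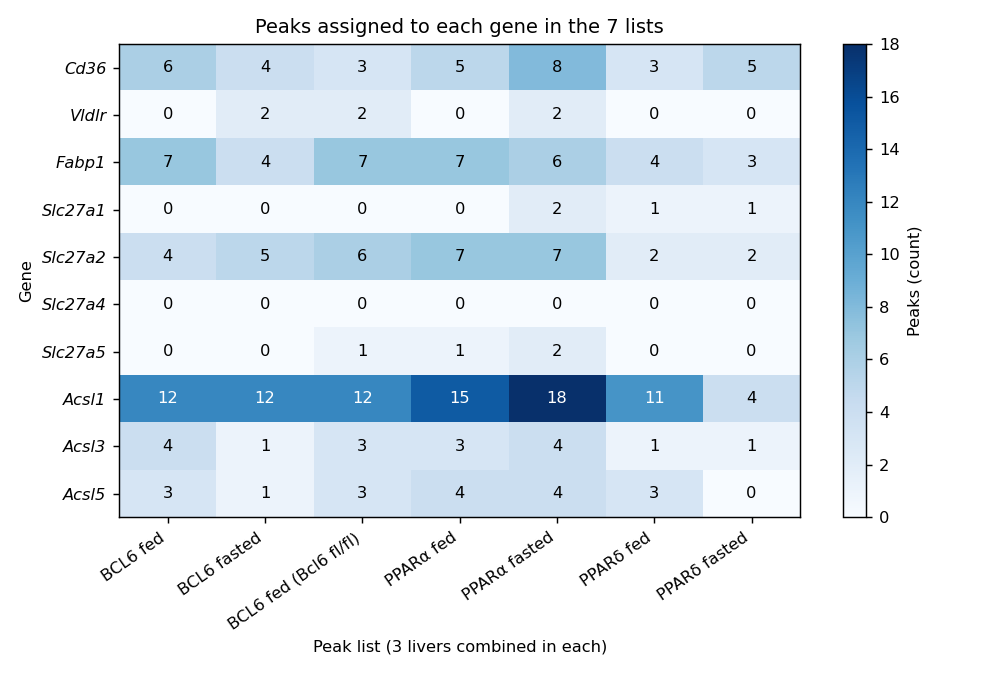
Peaks assigned to each of the 10 genes (rows) in the 7 peak lists (columns), with the count in each cell and darker blue for more peaks. *Acsl1* had between 4 and 18 peaks in every list, *Slc27a4* had 0 in all 7, and *Vldlr* and *Slc27a1* had none in the fed C57BL/6 lists of BCL6 and PPARα.

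Of the BCL6 sites at these genes, 81.0% also held PPARα (95% Wilson confidence interval 66.7% to 90.0%, counting error only), beside 77.6% of all BCL6 sites. In the other direction, 57.6% of the PPARα sites held BCL6 (44.9% to 69.4%), beside 40.9% of all PPARα sites. PPARα was called at 26 of the 27 PPARδ sites (85.1% of all PPARδ sites) and BCL6 at 19 (57.8%). Among sites shared by BCL6 and PPARα, 55.9% at these genes also held PPARδ (39.5% to 71.1%), beside 34.1% of all shared sites. The centers of BCL6 and PPARα peaks at the 34 shared sites lay a median of 9.50 bp apart, and 29 were under 50 bp, which was 85.3% beside 86.4% over all shared sites. Of the 69 sites, 10 were called in all 7 lists (14.5%, 8.07% to 24.7%), whereas 1.60% of all sites were: 4 at *Acsl1*, 3 at *Fabp1*, 2 at *Slc27a2* and 1 at *Cd36*. Among the hepatocyte markers, *Alb* had 2 such sites of its 11 and *Apoa1* 1 of its 17, and *Ttr* and *Tat* had none.

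*Cd36* encodes the scavenger receptor that acts as a fatty acid translocase. It lies on the minus strand at chr5:17781690-17888959, has several annotated starts and had 11 sites, of which 8 were in introns of the longest curated transcript, 1 in coding exon 6 and 2 upstream. BCL6 had 6 peaks in fed, 4 in fasted and 3 in fed *Bcl6* fl/fl livers, PPARα had 5 in fed and 8 in fasted livers, and PPARδ had 3 and 5. PPARα and PPARδ peaks were thus more numerous in fasted livers, whereas the fasted BCL6 count lay between those of the C57BL/6 and *Bcl6* fl/fl fed lists. All 3 factors were called in both feeding states at 3 sites: the intron 1 site at chr5:17863162-17863414 shown above, the intron 1 site at chr5:17876729-17876982 partly overlapped by the ChIP-qPCR region, and a site at chr5:17924246-17924507, -35409 bp from the nearest start. Of these, only the first was also called in the *Bcl6* fl/fl list. The promoter site at chr5:17835689-17835957, +78 bp from an alternative start in intron 1, had PPARα and PPARδ peaks in fasted livers and no peak in fed livers. Neither of the 2 PPARδ sites of *Cd36* that were called in fasted livers only had a BCL6 call.

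*Vldlr*, the receptor for triglyceride-rich very low density lipoproteins (chr19:27216480-27254231), had 4 sites and no PPARδ peak. BCL6 was absent from the fed C57BL/6 list and had 2 peaks in the fasted list, and PPARα likewise had none in fed and 2 in fasted livers. The 3 upstream sites lay close together between -39699 and -37874 bp, and at the outermost one, shown above, BCL6 and PPARα were both called in fasted livers only. That BCL6 site was also called in fed *Bcl6* fl/fl livers, so its absence from the fed state held in 1 of the 2 fed lists. The intron 4 site at +19037 bp was called only for BCL6 in *Bcl6* fl/fl livers.

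*Fabp1*, the cytosolic fatty acid binding protein of the liver (chr6:71199879-71205034), had 7 sites, all upstream of the start, the farthest at -26784 bp, and all bound by both BCL6 and PPARα. BCL6 had 7 peaks in fed C57BL/6, 4 in fasted and 7 in fed *Bcl6* fl/fl livers, PPARα had 7 in fed and 6 in fasted livers, and PPARδ had 4 and 3. Every fed BCL6 site was therefore also called in the independent fed livers. Sites at -14513 bp, -10138 bp and -84 bp were called in all 7 lists, and the last of these covers the promoter (chr6:71199682-71200085). BCL6 was lost from the fasted list at -26784 bp, -6335 bp and -3605 bp, and at -6335 bp PPARα was lost too. The promoter window carried a DR1 match with 1 mismatch 23 bp from the site center.

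The Slc27a genes encode fatty acid transport proteins. *Slc27a1* (chr8:71568728-71587307), best known from muscle and adipose tissue, had 2 sites at its starts, at -236 bp and -10 bp. Both were called for PPARα in fasted livers only, and the first, chr8:71568365-71568776, was also called for PPARδ in both feeding states. No BCL6 peak was called at *Slc27a1*, although the window of its first site holds a BCL6 match with 1 mismatch.

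*Slc27a2* (chr2:126553024-126588243), which encodes a transporter that is also a very long-chain acyl-CoA synthetase, had 10 sites between -18437 and +22951 bp. BCL6 had 4 peaks in fed, 5 in fasted and 6 in fed *Bcl6* fl/fl livers, PPARα had 7 in each feeding state, and PPARδ had 2 in each. The fasted BCL6 count again lay between those of the 2 fed lists. Sites at -7504 bp and in intron 1 at +2701 bp were called in all 7 lists, and both carried a DR1 match with 2 mismatches, 27 and 28 bp from the site center. BCL6 was called in fasted livers only at -3114 bp and +8898 bp, and the second of these was also called in fed *Bcl6* fl/fl livers. At the promoter, -164 bp, PPARα was called in both states and BCL6 in *Bcl6* fl/fl livers alone.

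*Slc27a5* (chr7:12988346-12998192, minus strand), a liver gene whose product conjugates bile acids with coenzyme A, had 2 sites. The coding exon 1 site at +772 bp was called for PPARα in fasted livers and for BCL6 in fed *Bcl6* fl/fl livers, and the intron 2 site at +2142 bp for PPARα in both states. No PPARδ peak and no BCL6 peak in C57BL/6 livers was called there. *Slc27a4* (chr2:29802634-29817522), known from the intestine, had no peak in any list, and its assigned region of 22.1 kb is among the shortest of the 10 genes.

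*Acsl1*, the main long-chain acyl-CoA synthetase of the liver (chr8:46471037-46536051), had 21 sites, and 0.381% of all protein-coding genes had as many or more. BCL6 had 12 peaks in each of the fed, fasted and *Bcl6* fl/fl lists, PPARα had 15 in fed and 18 in fasted livers, and PPARδ had 11 and 4. The number of BCL6 peaks was thus the same in both feeding states, while PPARδ peaks were fewer in fasted livers. All 4 PPARδ peaks of the fasted list were at the sites called in every list: -85014, -83833 and -66660 bp upstream, and intron 1 at chr8:46485027-46485281.

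Along the *Acsl1* locus, the 6 most distant sites, from -85014 to -61559 bp, were each called for BCL6 in all 3 BCL6 lists, and 5 of the 6 were called for PPARα in both states. Closer to the gene, 4 sites from -24817 to -22158 bp all had PPARα, and 1 of the 4 had BCL6, in both fed lists. At a promoter site at -715 bp, BCL6 was called in fasted and in *Bcl6* fl/fl livers, PPARα in both states and PPARδ in fed livers. Promoter sites also lay at alternative starts in intron 1. The one at -541 bp had BCL6 in all 3 BCL6 lists, and PPARα and PPARδ in fed livers only. The one at +24 bp had PPARα in both states, PPARδ in fed livers and no BCL6. The last 2 sites, in introns 11 and 15, were called for PPARα in fasted livers only, and their nearest start is that of the neighbor *Cenpu*.

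*Acsl3*, an acyl-CoA synthetase of the endoplasmic reticulum and lipid droplets (chr1:78657825-78707743), had 7 sites. All of them could as well be given to *Utp14b*, which is annotated at the same place, and the site at -70622 bp lies also within *Mogat1*, which encodes a monoacylglycerol acyltransferase. BCL6 had 4 peaks in fed, 1 in fasted and 3 in fed *Bcl6* fl/fl livers, PPARα had 3 in fed and 4 in fasted livers, and PPARδ had 1 in each. At -980 bp (chr1:78656658-78656978) both PPARs were called in both feeding states and BCL6 in *Bcl6* fl/fl livers alone, and the window held a DR1 match. The intron 1 site at +18934 bp was called for BCL6 in all 3 lists with no PPAR, and held an exact BCL6 element.

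*Acsl5*, an acyl-CoA synthetase found on mitochondria and the endoplasmic reticulum (chr19:55251861-55296628), had 5 sites. BCL6 had 3 peaks in fed, 1 in fasted and 3 in fed *Bcl6* fl/fl livers, PPARα had 4 in each state, and PPARδ had 3 in fed and none in fasted livers. It was the only one of the 7 genes with PPARδ in fed livers that had no PPARδ peak in the fasted list. The promoter site at -21 bp was bound by all 3 factors in fed livers and by PPARα alone in fasted livers. In intron 1, at +4406 bp, BCL6 and PPARα were called in both states.

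**Figure D2:**
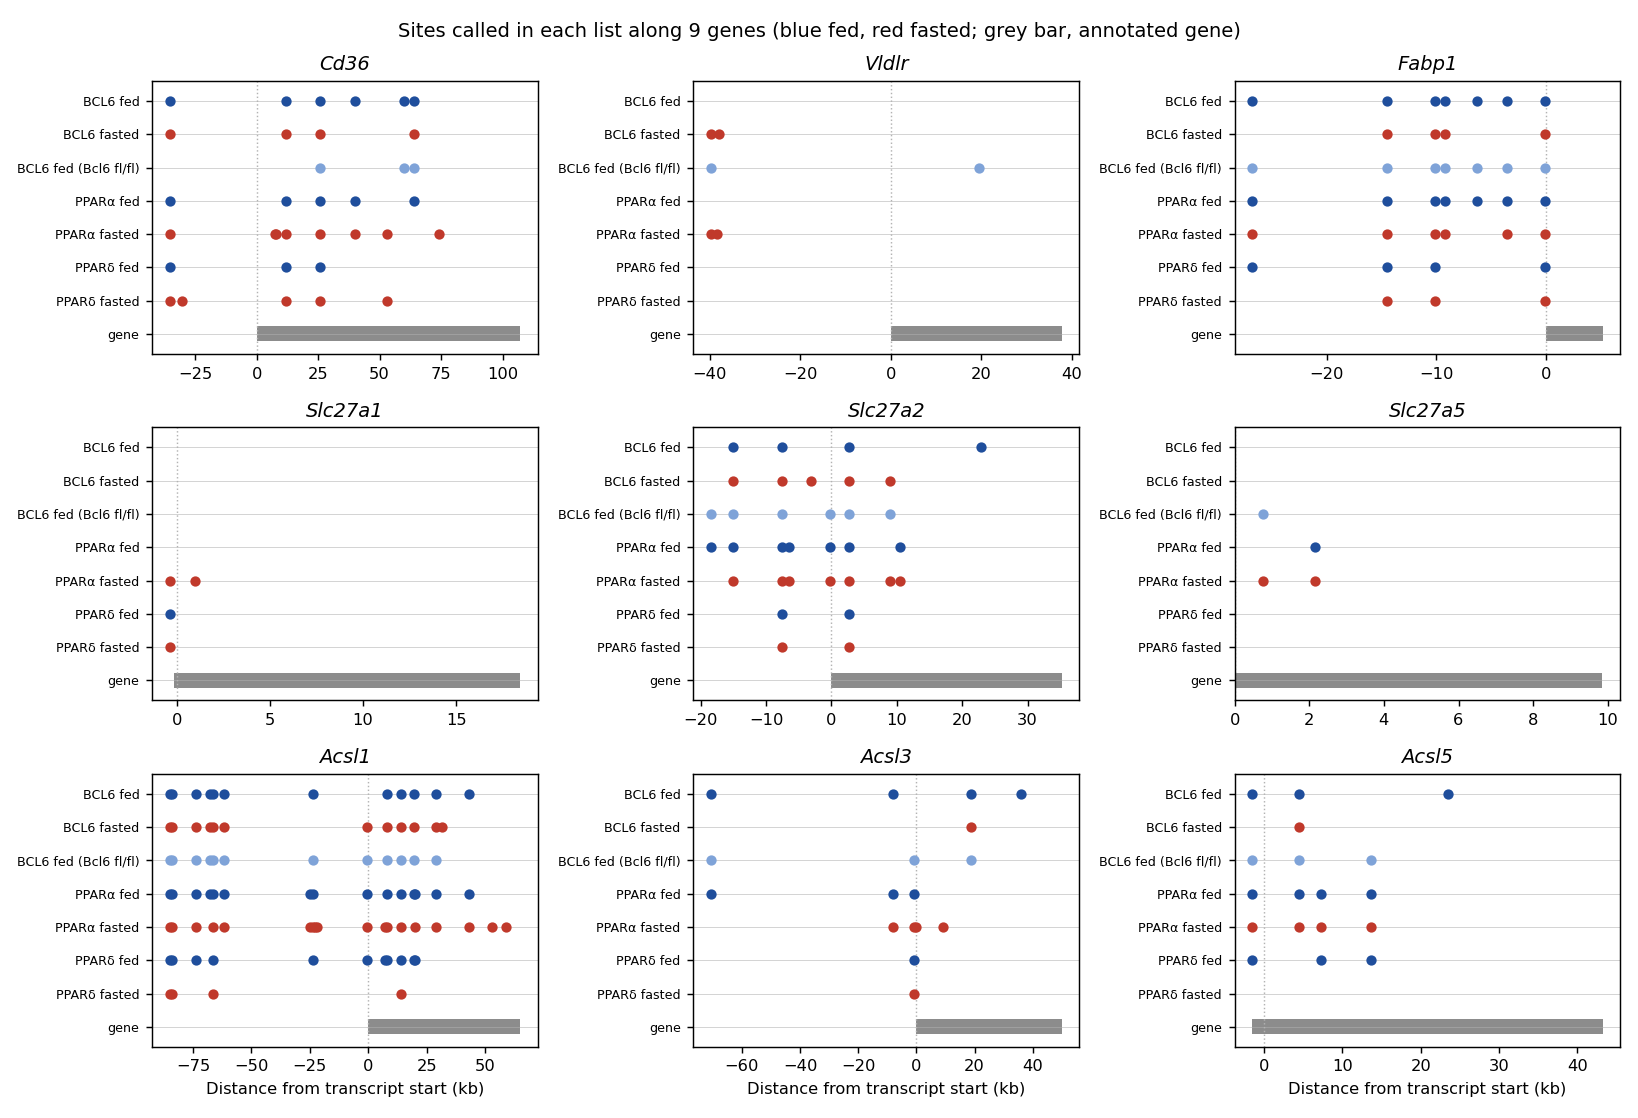
Sites called in each of the 7 lists (rows, points at site centers) along the 9 genes with a site, against the distance in kb from the start of the longest curated transcript, negative upstream, with the annotated gene as a grey bar. The *Fabp1* points lie upstream or at the start in all lists, the distant *Acsl1* sites between -85014 and -61559 bp include points in every list, and *Acsl5* has no point for PPARδ in fasted livers.

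Changes with fasting were counted over the 10 genes together and set beside the whole lists, because the lists themselves differ in size. BCL6 peaks at these genes numbered 36 in fed and 29 in fasted livers, a change of -19.4%, and the whole lists held 15642 and 9613 peaks, a change of -38.5%. PPARα peaks numbered 42 and 53, 26.2% more in fasted livers, and 35.8% more in the whole list (21410 and 29085). PPARδ peaks numbered 25 and 16, a change of -36.0%, against -67.3% in the whole list (7328 and 2399). Each factor thus moved in the direction of its whole list, and no test was made of the size of the difference, since peaks are not replicates.

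By site, 13 of the 42 BCL6 sites were called in the fed state alone (31.0%, interval 19.1% to 46.0%), beside 45.3% of all BCL6 sites. It was called in both states at 23 (54.8%, 39.9% to 68.8%; all sites 43.7%) and in fasted livers only at 6 (14.3%, 6.72% to 27.8%; all sites 11.0%). The 13 fed-only sites were at *Fabp1* and *Acsl3* (3 each), *Cd36*, *Acsl1* and *Acsl5* (2 each) and *Slc27a2* (1). The 6 fasted-only sites were at *Vldlr*, *Slc27a2* and *Acsl1*, 2 each. All 3 intervals include the share over all BCL6 sites.

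PPARα was called in both states at 36 of its 59 sites (61.0%, 48.3% to 72.4%), beside 51.3% of all PPARα sites. It was called in fasted livers only at 17 (28.8%, 18.8% to 41.4%; all sites 35.8%) and in fed livers only at 6 (10.2%, 4.74% to 20.5%; all sites 12.8%). *Acsl1* held 5 of the fasted-only sites, *Cd36* 4, *Vldlr*, *Slc27a1* and *Acsl3* 2 each, and *Slc27a2* and *Slc27a5* 1 each. Sites called in fasted livers only seldom held BCL6. They were 15 of the 25 PPARα sites without BCL6 (60.0%, 40.7% to 76.6%; all sites 52.6%) and 2 of the 34 with BCL6 (5.88%, 1.63% to 19.1%; all sites 11.7%). All 3 feeding classes again had intervals that include the share over all PPARα sites. The contrast between sites with and without BCL6 was present over all PPARα sites and is not particular to these genes.

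At PPARδ sites the share called in both states was 14 of 27 (51.9%, 34.0% to 69.3%), beside 18.7% of all PPARδ sites. Fed-only sites numbered 11 (40.7%, 24.5% to 59.3%; all sites 70.7%) and fasted-only sites 2 (7.41%, 2.06% to 23.4%; all sites 10.6%). The both-state sites were spread over *Acsl1* (4), *Cd36* and *Fabp1* (3 each), *Slc27a2* (2), *Slc27a1* and *Acsl3* (1 each). Among sites with all 3 factors, PPARδ was called in both states at 12 of 19 (63.2%, 41.0% to 80.9%; all such sites 20.5%) and in fed livers only at 7 (36.8%, 19.1% to 59.0%; all such sites 76.5%). Of the 3 factors, PPARδ was the one whose intervals for fed-only and both-state sites did not include the share over all of its sites. The 10 sites called in all 7 lists are by definition PPARδ sites of both states. They are therefore among the 14 and the 12 counted here, and these counts are not separate results. Without *Acsl1*, the gene with the most sites, the both-state share was 62.5% and the fed-only share 25.0% of 16 sites. The intervals treat sites as independent, and sites of 1 gene are not.

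**Figure D3:**
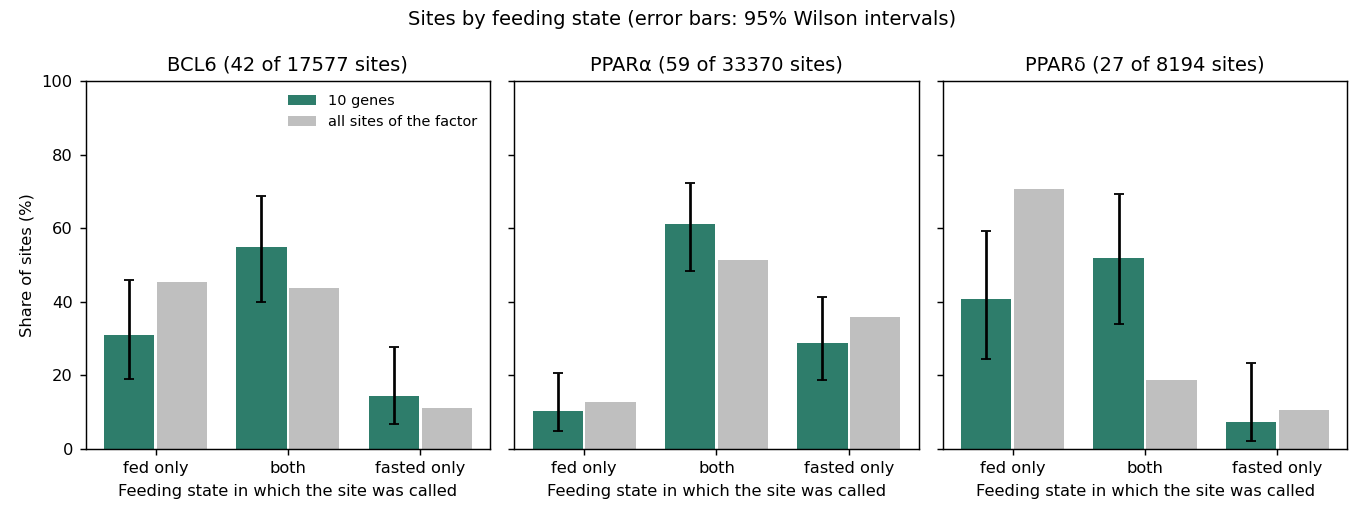
Share of sites (%) called only in the fed state, in both states or only in the fasted state for BCL6, PPARα and PPARδ at the 10 genes (green, with 95% Wilson intervals) and over all sites of the factor (grey). PPARδ sites called in both states made up 51.9% at the 10 genes and 18.7% of all PPARδ sites, whereas the green and grey bars of BCL6 and PPARα are closer together.

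At the 34 sites shared by BCL6 and PPARα, the feeding states of the factors were compared side by side. At 19 sites both factors were called in both states (55.9%, 39.5% to 71.1%), beside 44.0% of all shared sites. At 7 sites, in *Cd36*, *Fabp1*, *Acsl1*, *Acsl3* and *Acsl5*, BCL6 was called in fed livers only while PPARα was called in both (20.6%, 10.3% to 36.8%; all shared sites 25.1%). A full exchange is BCL6 in fed livers only with PPARα in fasted livers only. It was seen at 0 of the 34 sites and at 5.84% of all shared sites. The 0 allows a share of up to 10.2% by the Wilson interval, and up to 8.82% by a limit of 3 counts of the total. At 3 sites, 2 of *Acsl1* and 1 of *Cd36*, BCL6 was called in both states and PPARα in fed livers only (8.82%, 3.05% to 23.0%; all shared sites 3.09%). A call does not measure occupancy, and a factor can weaken or strengthen within sites called in both states.

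The *Bcl6* fl/fl list gave a second view of fed BCL6 binding from 3 other livers. Of the 36 fed C57BL/6 BCL6 sites at these genes, 28 were called in it (77.8%, 61.9% to 88.3%), beside 69.6% of all such sites. Of the 37 *Bcl6* fl/fl sites, 28 were in the C57BL/6 fed list (75.7%, 59.9% to 86.6%), beside 62.3%. Of the 23 sites called in both feeding states, 21 were found in it (91.3%, 73.2% to 97.6%; all sites 88.7%), and of the 13 fed-only sites 7 were (53.8%, 29.1% to 76.8%; all sites 51.1%). Of the 6 fasted-only BCL6 sites, 3 were called in fed *Bcl6* fl/fl livers (50.0%, 18.8% to 81.2%; all sites 49.1%), 1 each at *Vldlr*, *Slc27a2* and *Acsl1*. The label fasted only therefore did not hold across both fed lists for these 3 sites.

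Most sites lay away from promoters. Of the 69 sites, 32 were in introns, 2 in coding exons and 35 upstream of the longest curated transcript, and 34 were within 10000 bp of a start of their gene. These places were not counted over all sites, so they do not set these genes apart. Promoters, taken as 1000 bp before a TSS to 100 bp after it, held 11 (15.9%, 9.14% to 26.3%; all sites 13.4%). They held 4 of the 42 BCL6 sites (9.52%, 3.77% to 22.1%; all sites 5.21%) and 11 of the 59 PPARα sites (18.6%, 10.7% to 30.4%; all sites 14.7%). Every promoter site at these genes thus carried PPARα, at *Cd36*, *Fabp1*, *Slc27a1*, *Slc27a2*, *Acsl1*, *Acsl3* and *Acsl5*. Most promoter sites elsewhere did too: 4919 of the 5443 promoter sites over all sites carried PPARα.

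Sequence matches were counted in the 201 bp around each site center, on both strands. DR1, with up to 2 mismatches in its 12 fixed bases, was found at 14 of the 59 PPARα sites (23.7%, 14.7% to 36.0%), beside 14.0% of all PPARα sites. In a window of 50 bp the shares were 1.69% and 4.67%, and with 1 mismatch fewer 3.39% and 3.31%. In the wide window it was found at 10 of the 36 PPARα sites called in both states and at 3 of the 17 called in fasted livers only, beside 14.9% and 14.1% over all such sites. None of the 8 BCL6 sites without PPARα held DR1, beside 6.88% of all such sites. This allows a share of up to 32.4% by the Wilson interval, and up to 37.5% by the limit of 3 counts. The BCL6 element was found at 4 of the 42 BCL6 sites (9.52%, 3.77% to 22.1%), beside 15.4% of all BCL6 sites, and 3 of these were exact: *Cd36* intron 1, shown above, *Fabp1* at -6335 bp and *Acsl3* at +18934 bp. Exact elements were thus at 7.14% of the BCL6 sites of these genes and at 1.99% of all BCL6 sites, the opposite order to that with 1 mismatch allowed. In a window of 50 bp, with 1 mismatch allowed, the shares were 4.76% and 5.01%. The exact *Cd36* match lay at -86 bp from the site center. None of the 69 sites of these genes held both elements. Such sites were rare over all sites too, 503 of 40474, so this absence does not set these genes apart. A missing match says only that these letters are not in the window.

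The density of sites was set against the length of DNA that the assignment gives to each gene. The 10 genes had 8.08 sites per 100 kb over 854 kb, and all protein-coding genes together had 2.02. Per gene the density ran from 0 at *Slc27a4* and 2.61 at *Vldlr* to 13.7 at *Acsl1* and 16.3 at *Slc27a2*, and *Slc27a1* reached 10.2 with 2 sites because its region is 19.6 kb. Hepatocyte markers ran from 9.88 at *Ttr* to 22.1 at *Tat*, so the densest of the 10 genes lay within the range of these markers.

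Other genes of fatty acid uptake, binding and activation were counted in the same way. Of 14 such genes, 9 had a site, against 52.6% of all protein-coding genes. *Lpl*, which encodes lipoprotein lipase, had 8 sites, *Fabp5* 7, *Fabp2* 6, *Acsl4* and the acyl-CoA binding protein gene *Dbi* 5 each, and *Acsbg1*, *Fabp4*, *Cav1* and *Got2* 2 each. *Slc27a3*, *Slc27a6*, *Acsl6*, *Acsbg2* and *Fabp7* had none. All 9 had PPARα (48.2% of all protein-coding genes), 7 had BCL6 (30.0%) and 6 had a site shared by both (25.1%). A site with all 3 factors was found at 5, *Acsl4*, *Fabp5*, *Lpl*, *Got2* and *Dbi* (12.5% of all genes). A site in all 7 lists was found at *Dbi* alone, in a region of 23.8 kb with 21.0 sites per 100 kb. PPARδ was in the fasted list at 3 of the 9, *Fabp4*, *Lpl* and *Dbi*, with 1 peak each.

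**Figure D4:**
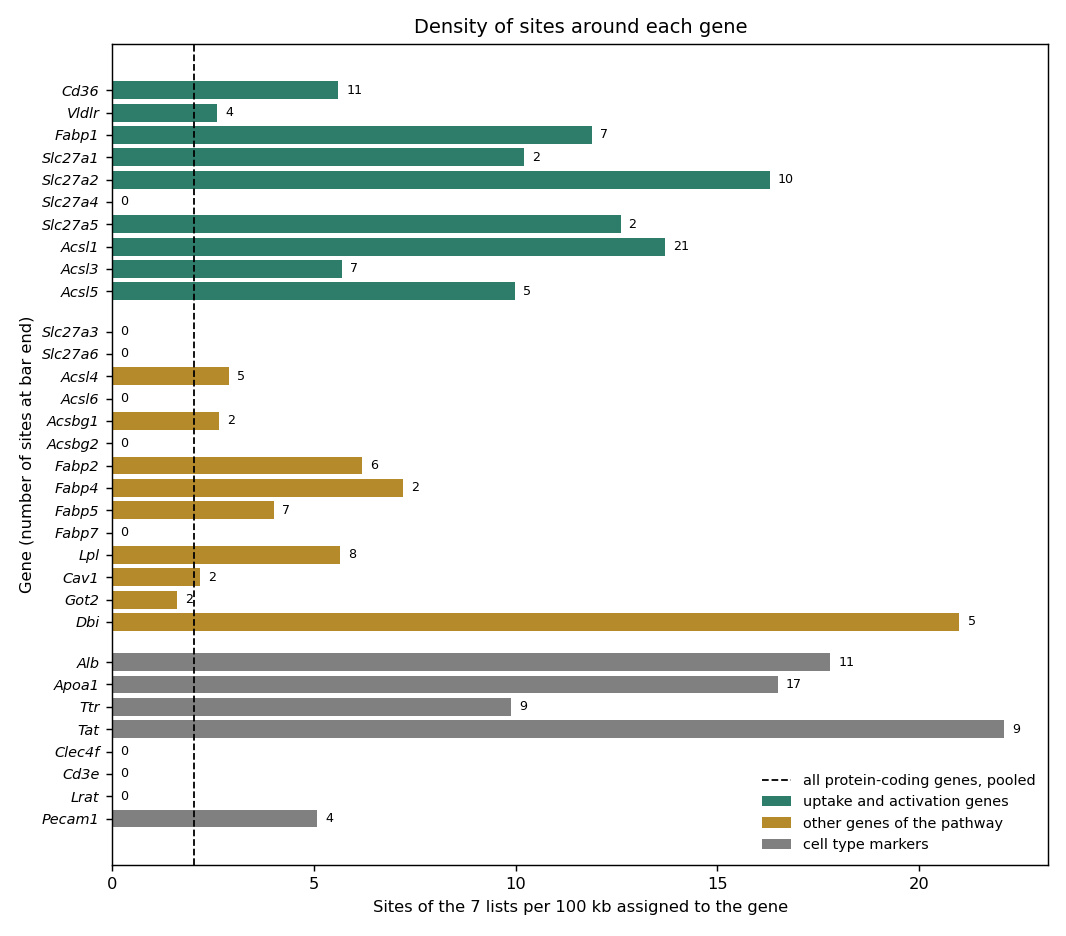
Sites of the 7 lists per 100 kb of DNA assigned to each gene, with the number of sites at the end of each bar, for the 10 genes (green), 14 other genes of the pathway (ochre) and cell type markers (grey). The dashed line marks 2.02, the pooled value over all protein-coding genes. The 9 green bars that pass it are those of the genes with any site, and 52.6% of all protein-coding genes had a site. The share of all genes that pass the line was not computed.

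The peak counts of *Acsl1* in the 7 lists were compared with those of every other protein-coding gene by the summed absolute difference. The nearest were *Arid5b*, *Hes1*, *Mtus1* and *Thrb*, each 12 peaks away, and *Dusp6*, 13 away. None of them had as many PPARδ peaks as *Acsl1* in fed livers except *Thrb*, with 12. Their BCL6 peaks were 12 in fed and 7 in fasted livers at *Arid5b*, 13 and 9 at *Hes1*, 14 and 10 at *Thrb* and 11 and 12 at *Dusp6*, where *Acsl1* had 12 in each, whereas *Mtus1*, like *Acsl1*, had 12 in each.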

How the data were processed

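ChIP-seq peak lists of BCL6, PPARα and PPARδ were used. According to the study's methods, the authors mapped reads with Bowtie on mm10 and retained unique placements and 1 read per start position. HOMER then found peaks in the pooled triplicates over input, and the authors filtered them for enrichment with DESeq2 on the separate libraries. The deposited lists give the start and end of each peak, with no count or score, and peak width is fixed within a list (192 to 222 bp). Repeated sequences that reads cannot place uniquely can lack peaks.

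Peak centers of all 7 lists were joined by single linkage within 200 bp, the study's distance, and assigned with RefSeq genes of GRCm38. The intervals are 95% Wilson intervals and cover counting error only. All of them treat sites as independent, and sites of 1 gene are not. No test was made, as each list is 1 value, and whether an interval includes the share over all sites is not a test. Functions were tested on simulated data. Members, gene lists and rules were chosen with earlier results of these data known. All 10 members and every other pathway gene with a site are named. A marker gene of the list is not reported here. Groups followed the labels, and 38 further samples without lists were not used here. Alternatives changed joining, reach, annotation, promoters, elements and the fed BCL6 list. Matplotlib 3.10.9, SciPy 1.17.1, NumPy 2.4.6 and Python 3.11.15 were used.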

Additional observations from a re-analysis of the deposited data

How the results depend on the processing

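Of 77 recomputed values, 73 stayed within 1.5 times the count or within the interval of the share reported above. Sites of the 10 genes numbered 62 to 73 when the joining distance, the reach, the gene body rule or the set of starts was changed, and sites shared by BCL6 and PPARα numbered 27 to 35. The share of fed-only BCL6 sites ran from 30.0% to 39.3%, of fasted-only PPARα sites from 25.0% to 32.7% and of fed-only PPARδ sites from 25.0% to 43.5%. The lowest PPARδ value and the highest BCL6 value were found without *Acsl1*, a choice added after the data were seen. Without *Acsl1*, 6 of 48 sites were called in all 7 lists. Promoters from 5000 bp upstream to 1000 bp downstream held 17 sites. DR1 was found at 3.39% of the PPARα sites with 1 mismatch fewer (all sites 3.31%) and at 1.69% in a window of 50 bp (all sites 4.67%), so the higher share of DR1 at these genes held only in the wide window with 2 mismatches and the cause was not tested. Exact BCL6 elements were at 7.14% of the BCL6 sites (all sites 1.99%), against 9.52% (all sites 15.4%) with 1 mismatch allowed. In a window of 50 bp, with 1 mismatch allowed, the share was 4.76% (all sites 5.01%). No paired analysis was possible because each list combines its replicates. Depth is unknown, so a site missing from a list may lie just under its threshold.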
